A study of Mus musculus with 8 samples.

Results

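Lysosomal gene expression was examined in macrophages sorted from epididymal white adipose tissue (eWAT) of obese mice after short-term caloric restriction (stCR), with the question of whether cells that carry FCGR4 on their surface differ in lysosomal content from those that do not. The set comprised 48 genes chosen by symbol, of 54146 genes in the deposited count table: 16 for the lysosomal proton pump, 10 cathepsins, 16 other hydrolases and their activators, and 6 for the lysosomal membrane, sterol export, calcium release and transcriptional control. All 48 were found in the table and all 48 passed the filter on low counts, which kept 17095 genes. The samples were 8 bulk RNA-Seq libraries, an FCGR4+ and an FCGR4- library from each of 4 mice, so that every comparison was made within an animal. All 4 animals were labelled C57Bl6, had eaten a high-fat diet without limit for 24 weeks and had then received 30% less food for 2 weeks, and there was no group without caloric restriction among these libraries. The study used only male animals, which entered its experiments as young adults, and ages of these 4 are not in the labels. The labels name no other allele. Cells were gated as CD45+, CD3-, B220-, Ly6G-, SiglecF- and CD11b+ and then divided by FCGR4, so both populations hold any CD11b+ leukocyte that the gate did not remove.

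The lysosome is the acidic compartment in which cells break down engulfed and recycled material. A proton pump, the V-ATPase, acidifies it: a membrane sector (V0) carries the protons, and a cytosolic sector (V1) hydrolyses ATP. Cathepsins are the main family of its proteases, other hydrolases act chiefly on glycans and lipids, with a few further proteases among them, and NPC1 and NPC2 pass the freed cholesterol out. Many of these genes carry an E-box to which TFEB and related transcription factors bind. In obese adipose tissue, macrophages take up lipid and debris from dying adipocytes and degrade them in this compartment.

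The libraries held between 35992794 and 66856746 counts. Fcgr4, the label check, was 199.6 ± 42.4 CPM (TMM-normalized counts scaled to a common library size, mean ± SD, n = 4) in FCGR4+ and 66.1 ± 18.3 CPM in FCGR4- macrophages, was higher in FCGR4+ in 4 of 4 mice, and rose 3.05-fold (adjusted P = 0.0162). Macrophage markers were abundant in both populations: the 11 listed summed to between 30445 and 54955 CPM in FCGR4+ and between 24256 and 48358 CPM in FCGR4- libraries, with Lyz2 the largest part. Both upper limits were mouse 2, and the other mice reached at most 31825 and 28531 CPM. Their sum was higher in FCGR4+ in 4 of 4 mice, and 9 of the 11 estimates were above 0, with a median log2 fold change of 0.55. No macrophage marker passed the test, while DESeq2 called 7 of the 11 higher, against 1.12% of all tested genes. Among the 7 were Adgre1 (0.55, adjusted P = 0.261, and 0.0311 with DESeq2) and C1qa (0.64, adjusted P = 0.345, and 0.0639). Most markers of other leukocytes and of fibroblasts had estimates below 0. The 9 mast cell and basophil markers summed to between 13.8 and 30.4 CPM in FCGR4+ against between 382 and 2018 CPM in FCGR4-, and 8 of the 8 tested were called lower in FCGR4+, against 1.19% of all tested genes. The 9 dendritic cell markers summed to between 15.3 and 26.2 CPM against between 68.6 and 148 CPM (9 of 9 estimates below 0, 6 called), and the 9 neutrophil markers to between 121 and 546 CPM against between 382 and 2385 CPM (8 of 8 below 0, 5 called). Fibroblast and preadipocyte markers had 8 of 8 estimates below 0 (5 called), T and NK cell markers 8 of 8 (5 called), mesothelial markers 5 of 5 (1 called), B cell markers 3 of 4 (1 called) and endothelial markers 4 of 5 (0 called). Adipocyte markers differed: 4 of 7 estimates were below 0, the main edgeR fit called 0 and DESeq2 called 1 higher. Their sum, nearly all from Lpl, was higher in FCGR4+ in 4 of 4 mice (2554 to 5585 CPM against 1493 to 4585 CPM). The main edgeR fit called no marker of any list higher, against 0.0819% of all tested genes. When genes with low counts were left in, edgeR called 6 macrophage and 2 adipocyte markers higher (0.418% of the genes so tested). No listed marker was at 0 in all libraries. In bulk samples fewer cells of a type and less RNA per cell cannot be told apart, and the part of these other cells in the values below was not tested. Between 4.13% and 9.88% of counts came from mitochondrial genes.

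The lysosomal genes took a large share of the RNA. Together the 48 genes held between 4.56% and 8.82% of all counts when FCGR4+ cells were sequenced and between 4.28% and 8.19% for FCGR4-, and the 10 cathepsins alone held between 2.45% and 5.30% over the 8 libraries. The upper limits were those of mouse 2: in the other mice the 48 genes held at most 5.05% in FCGR4+ and 5.08% in FCGR4-, and the cathepsins at most 3.08%. Levels were compared between genes as the mean CPM over the 8 libraries per kilobase of exon (CPM per kb). Ctss, the cysteine protease that processes the MHC class II invariant chain, stood first at 4132 CPM per kb, followed by Ctsd, the main aspartic protease, at 3406, Psap, the precursor of the saposins that help split sphingolipids, at 3029, and Ctsb at 2159 CPM per kb. Mouse 2 raised these values and set part of the order, since without it Ctss was at 3300 CPM per kb, Psap at 2099, Ctsd at 2059 and Ctsb at 1798, while in mouse 2 alone Ctsd, at 7447, stood above Ctss, at 6628. Ctsz reached 1113 CPM per kb, Lgmn, the asparaginyl endopeptidase that matures cathepsins, 756, and Lamp1, a main glycoprotein of the lysosomal membrane, 724 CPM per kb. At the low end stood Npc1 at 6.42, Tfeb at 7.41, Mcoln1 at 7.83 and Smpd1, the acid sphingomyelinase, at 8.51 CPM per kb. The pump ranged from 15.3 CPM per kb for Atp6v1h to 283 CPM per kb for Atp6v1g1, with a median of 71.4 against 280 for the cathepsins, 65.9 for the other hydrolases and 57.3 for the membrane, sterol and control genes.

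Between the populations, the difference was small for almost every lysosomal gene and passed the test for none. With edgeR's quasi-likelihood test, mouse as a block and a threshold of 0.1 on the adjusted P, 0 of 48 members were called higher in FCGR4+ (0.0819% of all tested genes were) and 0 of 48 were called lower (1.19% of all tested genes were). At an unadjusted P under 0.05 there were 6 members, 5 of them higher in FCGR4+, or 12.5% of the 48 against 9.77% of all tested genes. DESeq2 called 1 member higher, Ctss, against 1.12% of all tested genes, and 0 lower against 4.87%. When genes with low counts were left in, Ctss again was the 1 member called higher (0.418% of the genes so tested) and 0 were lower (2.35%). The lack of calls came with fairly narrow intervals. For 45 of 48 members the 95% interval of the log2 fold change lay within -1 and 1, that is, inside a doubling in either direction, as it did for 56.2% of all tested genes and for 92.8% of the tested genes at least as abundant as Smpd1, the member with the lowest mean CPM.

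**Figure D1:**
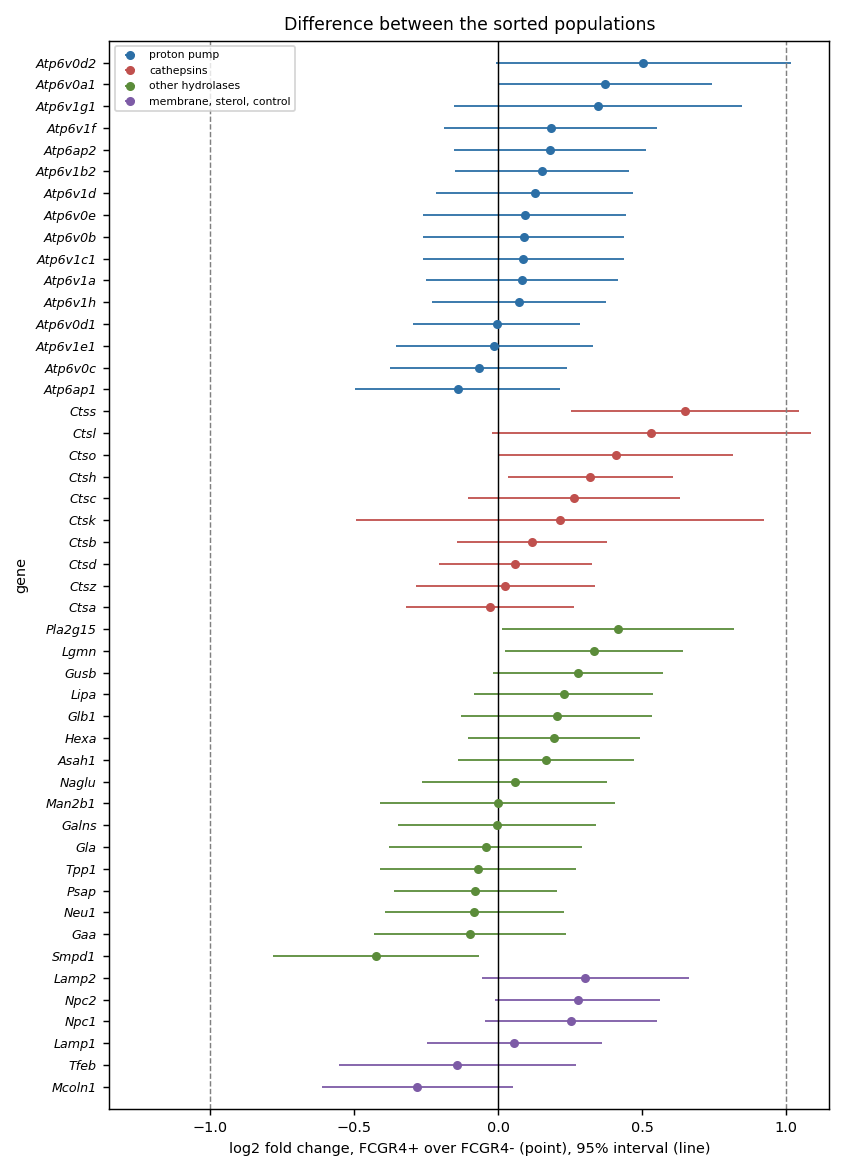
Log2 fold change of each of the 48 genes between FCGR4+ and FCGR4- macrophages, from edgeR with mouse as a block (point), with its 95% interval (line), on the x axis, and the genes on the y axis by group. Dashed lines mark -1 and 1. The points lie between -0.42 (Smpd1) and 0.65 (Ctss), and only the intervals of Ctss, Ctsl and Atp6v0d2 reach past 1.

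The point estimates leaned to FCGR4+. The median log2 fold change of the 48 members was 0.11, with 33 above 0, against a median of -0.0025 over all tested genes and 0.07 over the 4602 tested genes at least as abundant as the lowest member, of which 60% were above 0. The 4602 share only a lower limit with the members and were not matched to them in abundance. In 4 of 4 mice, 13 members were higher in FCGR4+ (27.1%, against 8.38% of all tested genes and 11.9% of the 4602). The 2 members lower in 4 of 4 mice were Smpd1 and Mcoln1 (4.17%, against 10.5% and 4.35%). For no member did every FCGR4+ library lie above every FCGR4- library (0.883% of all tested genes), or below (3.02%). The summed level of the 48 was 60545 ± 21279 CPM in FCGR4+ and 54442 ± 21579 CPM in FCGR4- macrophages (SD, n = 4), and the log2 ratio within each mouse was 0.20, 0.09, 0.23 and 0.15. The macrophage markers leaned the same way and by more, with the median of 0.55 given above, and their part in the lean of the lysosomal genes was not tested.

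The cathepsins had the highest group median over the 4 mice, 0.24 on the log2 scale, with 9 of 10 above 0, 0 called, and 4 of 10 higher in 4 of 4 mice. Within single mice their median log2 ratio was 0.17, 0.07, 0.28 and 0.20, the highest of the 4 groups in mouse 3 alone, and in mice 1 and 2 fitted alone their median was 0.10 against 0.21 for the other hydrolases. Ctss carried the largest difference of all members in the main fit. Without mouse as a block it was 0.55 against 0.56 for Ctsl. In mice 3 and 4 fitted alone, Ctsl (1.03) and Atp6v0d2 (0.93) stood above Ctss (0.88). In mice 1 and 2 fitted alone, Atp6v0a1 was largest, at 0.56 against 0.39 for Ctss. In mice 1 to 4 Ctss was 5174, 9455, 6657 and 5353 CPM in FCGR4+ and 3318, 8547, 3211 and 3172 CPM in FCGR4- macrophages. Each FCGR4+ library lay above its own FCGR4- partner, but the FCGR4- library of mouse 2 exceeded the FCGR4+ libraries of the other 3 mice, so the groups overlapped. The log2 fold change was 0.65 ± 0.17 (SE), or 1.57-fold with a 95% interval from 1.19 to 2.06, and the adjusted P was 0.215. DESeq2 gave 0.64 with an adjusted P of 0.0095, and edgeR without the count filter gave 0.67 with an adjusted P of 0.0183. Over all alternatives the adjusted P ran from 0.0095 to 0.928. Without mouse 2 it was 0.81 (adjusted P = 0.155). Ctss is at chr3:95526786-95556403 (mm10, + strand), and no other annotated gene shares its exons.

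Ctsl, a broad cysteine endopeptidase, had the next largest difference among the cathepsins, but it came from 2 of the 4 animals. It was 1175, 1794, 2431 and 2617 CPM in FCGR4+ and 1135, 1834, 1045 and 1409 CPM in FCGR4- macrophages of mice 1 to 4. The populations were close in mice 1 and 2 and differed in mice 3 and 4, and the groups overlapped. The log2 fold change was 0.53 ± 0.24 (SE), adjusted P = 0.520. Of its exon bases, 26.8% overlap the models Gm47123 and Gm49230, whose reads counting without strand cannot tell apart from its own.

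Ctso and Ctsh, both cysteine proteases (Ctsh chiefly an aminopeptidase), were at an unadjusted P under 0.05 and did not pass after adjustment. Ctso was 225, 127, 113 and 104 CPM in FCGR4+ and 142, 133, 66.6 and 85.7 CPM in FCGR4- macrophages, higher in 3 of 4 mice (log2 fold change 0.41 ± 0.17, adjusted P = 0.510). Ctsh was 566, 1022, 845 and 789 CPM in FCGR4+ and 493, 818, 636 and 619 CPM in FCGR4- macrophages. It was higher in FCGR4+ in 4 of 4 mice by similar amounts, with log2 ratios between 0.20 and 0.41 (log2 fold change 0.32 ± 0.12, adjusted P = 0.455). Both sets of libraries overlapped.

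The other cathepsins were near equal or uneven between animals. Ctsb, an abundant cysteine protease, was higher in 4 of 4 mice by log2 ratios of only 0.07 to 0.15. Ctsc, which activates granule serine proteases, had log2 ratios of 0.66 and 0.38 in mice 1 and 2 and of -0.05 and 0.06 in mice 3 and 4. Ctsz, a cysteine carboxypeptidase, showed a log2 fold change of 0.02 (adjusted P = 0.957) and Ctsa, the serine carboxypeptidase that also protects beta-galactosidase and neuraminidase, of -0.03 (adjusted P = 0.945). Ctsd was 4745, 17661, 4789 and 5335 CPM in FCGR4+ and 4682, 17353, 4396 and 5089 CPM in FCGR4- macrophages. The populations of a mouse were almost equal (log2 fold change 0.06 ± 0.11, adjusted P = 0.864), while both libraries of mouse 2 stood more than 3-fold above the 6 others. Of the exon bases of Ctsd, 34.4% overlap the model Gm49369.

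**Figure D2:**
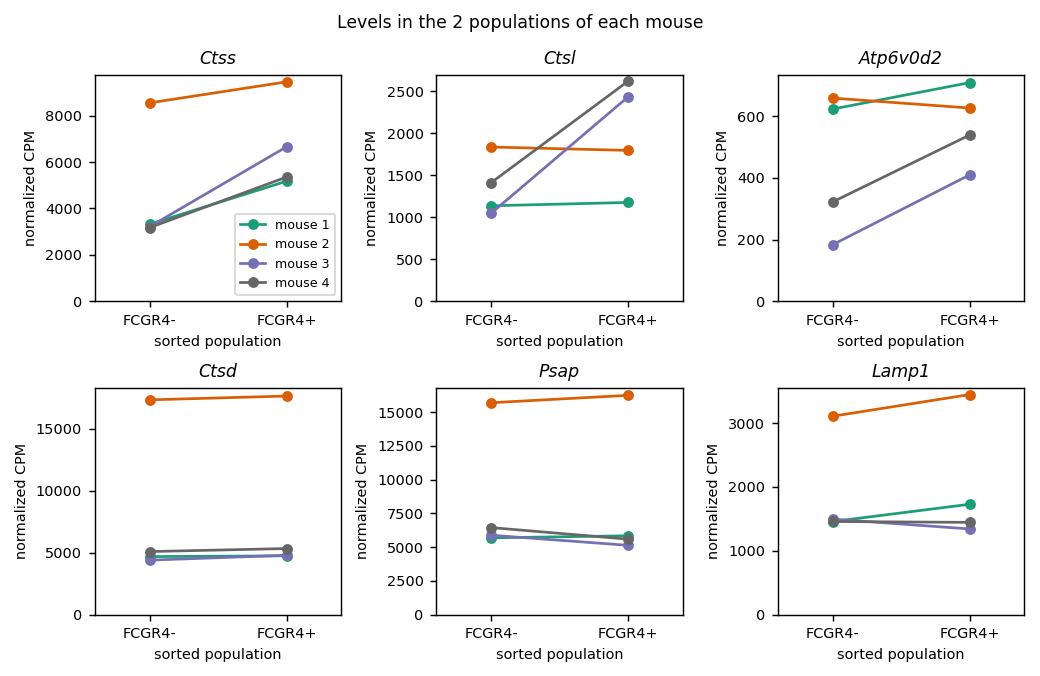
Normalized CPM (y axis, from 0) of 6 lysosomal genes in the FCGR4- and FCGR4+ libraries (x axis), with a line for each mouse. Ctss is higher in FCGR4+ in 4 of 4 mice, Ctsl and Atp6v0d2 are higher mainly in mice 3 and 4, and Ctsd, Psap and Lamp1 are set apart by mouse 2 (Ctsd 17353 and 17661 CPM) rather than by population.

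The proton pump had a median log2 fold change of 0.09, with 12 of 16 subunits above 0 and 0 called, and 1 of 16 was higher in FCGR4+ in 4 of 4 mice (Atp6v1b2). The 6 V0 subunits had a median of 0.09 and the 8 V1 subunits of 0.11. Atp6v0d2, the d2 form of the V0 stalk, which osteoclasts and activated macrophages use in place of the common d1 form, had the largest value. It was 709, 627, 410 and 539 CPM in FCGR4+ and 623, 659, 183 and 322 CPM in FCGR4- macrophages. As with Ctsl, it differed in mice 3 and 4 and little in mice 1 and 2, and the groups overlapped (log2 fold change 0.50 ± 0.22, adjusted P = 0.514). Atp6v0d1, its common counterpart, showed a log2 fold change of -0.01 (adjusted P = 0.991).

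Atp6v0a1, a membrane subunit of V0 that helps carry protons, was 324, 274, 184 and 226 CPM in FCGR4+ and 252, 161, 142 and 228 CPM in FCGR4- macrophages, with mouse 4 equal between them (log2 fold change 0.37 ± 0.16, adjusted P = 0.511). Atp6v1g1, a V1 stalk subunit and the most abundant of the pump per kb, was 298, 344, 409 and 366 CPM in FCGR4+ and 266, 432, 249 and 206 CPM in FCGR4- macrophages. It was higher in 3 of 4 mice and lower in mouse 2 (log2 fold change 0.35 ± 0.21, adjusted P = 0.615), and 19.2% of its 50-base words occur in other genes, most in Gm13453. At the other end stood Atp6ap1, an accessory subunit for assembly, with a log2 fold change of -0.14 (adjusted P = 0.752), the proteolipid Atp6v0c, with -0.07 (adjusted P = 0.866), and the V1 stalk subunit Atp6v1e1, with -0.01 (adjusted P = 0.979). Summed over its 16 genes, the pump was 4732 ± 450 CPM in FCGR4+ and 4353 ± 741 CPM in FCGR4- macrophages (SD, n = 4), and the log2 ratio within mice 1 to 4 was 0.13, -0.02, 0.16 and 0.25.

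Among the other hydrolases the estimates divided evenly, 8 of 16 above 0 and 8 below, with a median of 0.03 and 0 called. Those that act on lipids lay at both ends. Smpd1, which releases ceramide from sphingomyelin, was 27.3, 32.7, 20.5 and 17.4 CPM in FCGR4+ and 39.2, 34.4, 27.6 and 27.9 CPM in FCGR4- macrophages. It was lower in FCGR4+ in 4 of 4 mice, with overlap between the groups, and was the only member lower at an unadjusted P under 0.05 (log2 fold change -0.42 ± 0.15, adjusted P = 0.416). Pla2g15, a lysosomal phospholipase, was 259, 290, 196 and 166 CPM in FCGR4+ and 227, 163, 128 and 163 CPM in FCGR4- macrophages, higher in 4 of 4 mice by log2 ratios from 0.03 to 0.83 (log2 fold change 0.42 ± 0.17, adjusted P = 0.494). Lipa, the acid lipase that frees cholesterol and fatty acids from engulfed lipid, showed a log2 fold change of 0.23 (adjusted P = 0.600), and Asah1, the acid ceramidase, of 0.17 (adjusted P = 0.673).

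Lgmn was 1467, 2358, 1989.5 and 2036 CPM in FCGR4+ and 1289, 1628, 1453 and 1827 CPM in FCGR4- macrophages. It was higher in FCGR4+ in 4 of 4 mice (log2 fold change 0.33 ± 0.13, adjusted P = 0.480), and only the FCGR4+ library of mouse 1 kept the groups from separating. Psap was 5836, 16243, 5129 and 5586 CPM in FCGR4+ and 5683, 15696, 5879 and 6444 CPM in FCGR4- macrophages. As for Ctsd, mouse 2 stood apart in both populations, and the populations themselves were close (log2 fold change -0.08 ± 0.12, adjusted P = 0.828). The 9 glycan hydrolases had a median of -0.0023, from Gusb, the beta-glucuronidase, at 0.28 (adjusted P = 0.527) to Gaa, the acid alpha-glucosidase, at -0.10 (adjusted P = 0.819). Neu1, the lysosomal sialidase, was at -0.08 (adjusted P = 0.837).

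Of the membrane, sterol and control genes, 4 of 6 were above 0 and 0 were called. Lamp2, a membrane glycoprotein needed for lysosome fusion and for chaperone-mediated autophagy, was 1938, 1311, 1383 and 1313 CPM in FCGR4+ and 1372, 1442, 1098 and 920 CPM in FCGR4- macrophages, higher in 3 of 4 mice (log2 fold change 0.30 ± 0.15, adjusted P = 0.564). Both genes of cholesterol export were higher in 4 of 4 mice without passing the test. Npc2, the soluble sterol carrier, was 411, 727, 672 and 744 CPM in FCGR4+ and 372, 575, 553 and 587 CPM in FCGR4- macrophages (log2 fold change 0.28 ± 0.12, adjusted P = 0.518), and Npc1, its membrane partner, showed a log2 fold change of 0.25 ± 0.13 (adjusted P = 0.563).

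Mcoln1, the calcium channel of the lysosomal membrane, was 49.96, 85.5, 39.5 and 41.5 CPM in FCGR4+ and 53.2, 91.2, 57.8 and 54.3 CPM in FCGR4- macrophages. It was lower in FCGR4+ in 4 of 4 mice (log2 fold change -0.28 ± 0.14, adjusted P = 0.563). Tfeb, the transcription factor named for control of these genes, was 47.1, 53.7, 29.0 and 32.3 CPM in FCGR4+ and 39.9, 48.8, 40.6 and 44.6 CPM in FCGR4- macrophages, higher in mice 1 and 2 and lower in mice 3 and 4 (log2 fold change -0.14 ± 0.17, adjusted P = 0.783). Lamp1 differed by 0.06 ± 0.13 (adjusted P = 0.892).

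Levels varied widely between the animals. The mean log2 level of each mouse over both its libraries was taken for each gene, and the range of these 4 means exceeded the population difference for 48 of 48 members. A range over 4 means tends to exceed 1 difference between 2 means, so nothing is read from that count. The range did so for 80.6% of all tested genes and 93.2% of the 4602 at least as abundant as the lowest member. The median range of the members was 0.83 on the log2 scale (1.77-fold), against 0.57 (1.48-fold) over the 4602. The median size of the population difference was 0.15 against 0.17. Mouse 2 stood out most often. Both its libraries lay above the 6 others for 20 of 48 members (41.7%, against 8.11% of all tested genes and 11.9% of the 4602). The same held for mouse 1 in 2 members, for mouse 3 in 1 and for mouse 4 in 0, against 9.88%, 4.62% and 2.5% of all tested genes. Both libraries of mouse 1 lay below the 6 others for 12 members (25%, against 8.41% of all tested genes and 13.1% of the 4602). Those of mouse 3 did so for 6 (12.5%, against 6.1% of all tested genes). These counts describe 4 animals, each with 2 libraries made from the same tissue, and an animal is not a condition of the study.

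The 20 members highest in both libraries of mouse 2 came from all 4 groups. Of the 20, 9 were among the 16 other hydrolases, 5 among the 10 cathepsins, 4 among the 6 membrane and control genes and 2 among the 16 pump genes, and whether the groups differ in this was not tested. The median difference of mouse 2 from the other mice was 0.33 on the log2 scale for the pump and 0.58 for the cathepsins. It was 0.58 for the other hydrolases and 0.56 for the membrane and control genes. Over the 4602 genes at least as abundant as the lowest member it was 0.0045. Relative to the mean of the other mice on the log2 scale, mouse 2 was 3.62-fold higher for Ctsd, 2.83-fold for Naglu, which removes N-acetylglucosamine from heparan sulfate, 2.78-fold for Psap, 2.23-fold for Gaa, 2.21-fold for Lamp1 and 2.10-fold for Ctss. Naglu was 218 and 226 CPM in the FCGR4+ and FCGR4- libraries of mouse 2 and between 61.0 and 86.9 CPM in the 6 others. Lamp1 was 3449 and 3109 CPM in mouse 2 and between 1342 and 1729 CPM in the 6 others. Ctsc went the other way, at 1109 and 853 CPM in mouse 2 against between 1269 and 2356 CPM in the others, the only member for which both its libraries were lowest (5.24% of all tested genes).

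**Figure D3:**
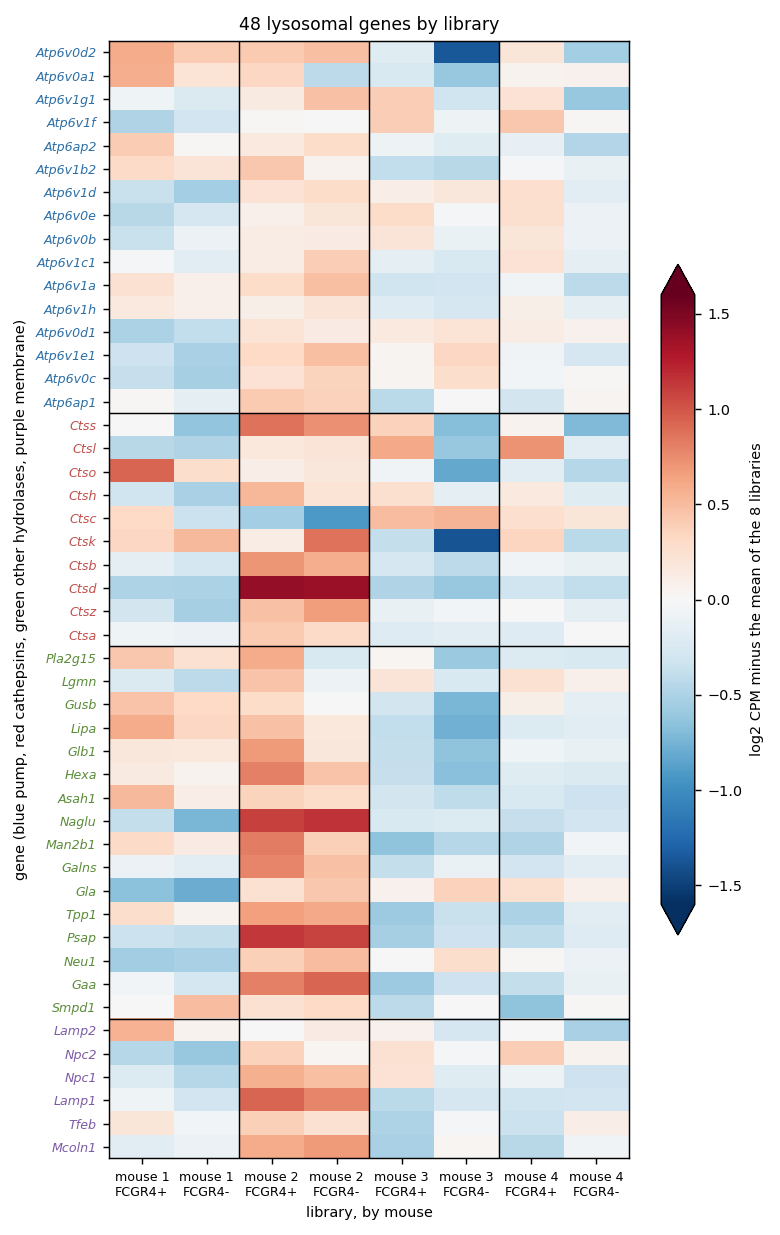
Log2 CPM of the 48 genes (rows, by group and by log2 fold change) in the 8 libraries (columns, by mouse), each as the difference from the gene's mean over the 8 libraries; red is above and blue below that mean. Both columns of mouse 2 are the reddest for 20 of the 48 genes.

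The pattern in mouse 2 extended to lysosomal genes outside the set. Of 75 other lysosomal genes, 70 passed the filter. For 34 of the 70 (48.6%), both libraries of mouse 2 lay above the 6 others. That was so for 8.11% of all tested genes and 11.9% of the 4602 at least as abundant as the lowest member. The 34 held 14 of 20 other membrane proteins and transporters and 12 of 26 other hydrolases and activators. The same was true of 6 of 16 sorting, activation and control genes, 2 of 4 pump subunits and 0 of 4 other cathepsins. For the factors that share the E-box with TFEB, the RNA of mouse 2 was at 1.07-fold of the other mice for Tfe3 and 0.93-fold for Mitf. Tfeb itself was at 1.33-fold and is among the 20 members highest in mouse 2. The part of these factors in the pattern was not tested. Lyz2, the macrophage lysozyme, was also highest there, at 39810 and 38655 CPM in mouse 2 against between 14387 and 18004 CPM in the others. The deviation of mouse 2 from the mean of the mice had a Spearman correlation with GC content of 0.14 over 17089 tested genes and 0.36 over the 48 members, points that all come from the same 8 libraries, and the median GC content was 53.7% for the 20 members and 47.6% for the other 28. The correlations were -0.25 and -0.31 for mouse 1, 0.03 and -0.09 for mouse 3 and 0.13 and -0.14 for mouse 4, so that over all tested genes mouse 2 was close to mouse 4 and mouse 1 lay further from 0. The part of GC content and of the cells sorted in these animal differences was not tested.

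The E-box was looked for in the promoters of these genes, since many members were highest in the same animal. RefSeq promoters of build GRCm38.p6 (mm10), each of 250 bases before and 50 after the start of transcription, were at hand for 38 of the 48 members. The letters CACGTG, which read the same on both strands, occurred in at least 1 promoter of 14 of these 38 genes (36.8%), against 11.5% of the 10791 tested genes with an entry. Flanked by T and A, a form that is contained in the first, they occurred in 7 (18.4% against 2.13%), and counting only bases before the start, in 12 (31.6% against 9.63%). The share was 4 of 11 pump genes, 3 of 8 cathepsins, 5 of 14 other hydrolases and 2 of 5 membrane and control genes. Among the members highest in both libraries of mouse 2 it was 8 of 17, and among the others 6 of 21, a description with no test. A match says that the letters are there, not that a factor binds.

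The 120 bases before the start are shown for 6 members with the letters, in capitals, and for Ctss and Psap, which are among the most abundant members and had none in this window. Each is written 5′ to 3′ on the strand of its gene. Lamp1 is at chr8:13159041-13159160 (+), Mcoln1 at chr8:3500399-3500518 (+), Naglu at chr11:101069974-101070093 (+), Ctsd at chr7:142387828-142387947 (-), Glb1 at chr9:114400958-114401077 (+), Atp6v0b at chr4:117887330-117887449 (-), Ctss at chr3:95526666-95526785 (+) and Psap at chr10:60277508-60277627 (+). The gene models of the deposited table begin further upstream for some, so that 62 bases of the Mcoln1 window, 82 of the Naglu window and 120 of the Ctsd window lie inside them.
Lamp1: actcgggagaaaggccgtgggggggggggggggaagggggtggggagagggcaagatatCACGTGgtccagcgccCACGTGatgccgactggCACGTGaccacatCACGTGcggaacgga
Mcoln1: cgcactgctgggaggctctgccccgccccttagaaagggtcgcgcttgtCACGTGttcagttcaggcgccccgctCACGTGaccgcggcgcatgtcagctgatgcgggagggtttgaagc
Naglu: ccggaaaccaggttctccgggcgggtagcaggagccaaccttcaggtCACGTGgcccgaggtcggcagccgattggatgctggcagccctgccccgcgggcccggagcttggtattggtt
Ctsd: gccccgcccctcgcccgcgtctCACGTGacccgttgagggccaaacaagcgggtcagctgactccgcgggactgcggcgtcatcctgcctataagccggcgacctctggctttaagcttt
Glb1: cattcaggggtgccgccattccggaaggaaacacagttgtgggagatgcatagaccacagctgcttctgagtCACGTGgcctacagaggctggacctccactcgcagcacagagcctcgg
Atp6v0b: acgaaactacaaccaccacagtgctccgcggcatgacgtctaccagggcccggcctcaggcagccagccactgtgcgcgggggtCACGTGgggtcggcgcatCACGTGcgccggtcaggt
Ctss: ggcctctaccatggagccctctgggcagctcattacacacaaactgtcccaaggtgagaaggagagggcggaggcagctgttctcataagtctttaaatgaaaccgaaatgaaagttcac
Psap: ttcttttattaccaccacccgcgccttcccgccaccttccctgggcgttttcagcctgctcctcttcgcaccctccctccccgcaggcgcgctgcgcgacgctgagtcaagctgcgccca
Within these windows Lamp1 held 4 copies, Mcoln1 and Atp6v0b 2 each, and Naglu, Ctsd and Glb1 1 each. Lamp1, Mcoln1, Naglu, Ctsd and Glb1, the beta-galactosidase, were all among the 20 members highest in mouse 2, while Atp6v0b, a V0 proteolipid, was not. Ctss and Psap were also among the 20, with no copy shown. The 6 were picked after their values were seen and over-represent mouse 2: of all 14 members with the letters, 8 were among the 20, and Atp6v0b, Atp6v0d1, Atp6v0e, Ctsl, Lgmn and Gla were not.

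The population ratios were also set side by side by animal ID prefix, which the labels give as S395 for mice 1 and 2 and S491 for mice 3 and 4, and no member passed a test of a difference between them. The members farthest apart are given as a description. Ctsl had log2 ratios of 0.05 and -0.03 in the first pair and 1.22 and 0.89 in the second. Ctsk, the collagenolytic cathepsin, had -0.19 and -0.76 against 1.02 and 0.78, Atp6v0d2 0.19 and -0.07 against 1.16 and 0.74, and Atp6v1g1 0.16 and -0.33 against 0.71 and 0.83. Tfeb went the other way, with 0.24 and 0.14 against -0.48 and -0.47. In all, 11 of 48 members had one sign in both mice of a prefix and the opposite sign in both of the other (22.9%, against 17% of all tested genes). A test of the difference itself, the interaction of population with prefix in edgeR, chosen after seeing the data, called 0 of 48 members (0% of all tested genes). At an unadjusted P under 0.05 it had 10 members (20.8%, against 13.8% of all tested genes), and the lowest adjusted P was 0.303. Within the second prefix alone the log2 fold change was 1.03 for Ctsl and 0.93 for Atp6v0d2, and within the first 0.01 and 0.06. The mitochondrial share of counts divided in the same way. It was 8.31% and 4.35% in FCGR4+ against 9.88% and 6.43% in FCGR4- libraries of mice 1 and 2, and 7.87% and 6.67% against 5.21% and 4.13% in mice 3 and 4, and its part in these ratios was not tested. What a prefix stands for is not given in the sources used here.

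**Figure D4:**
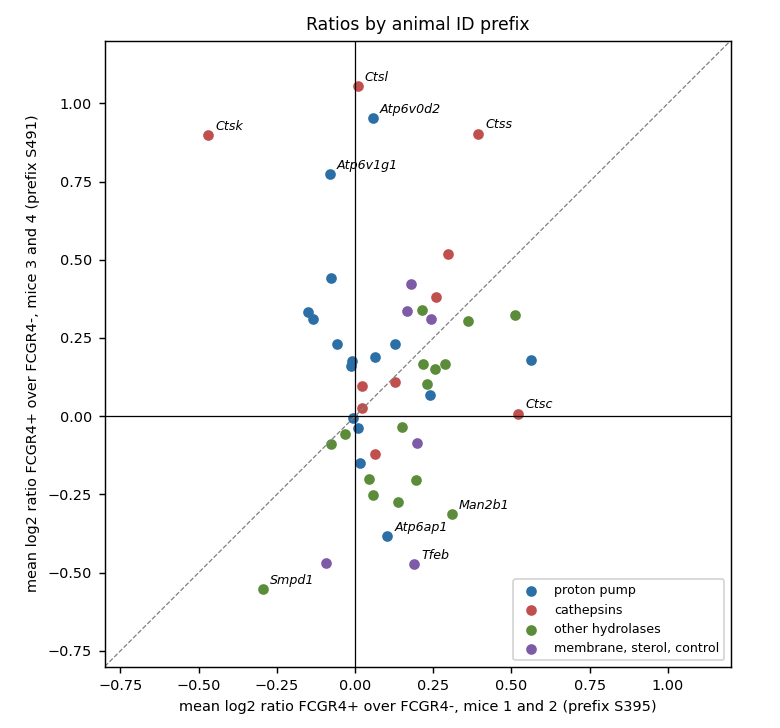
Mean log2 ratio of FCGR4+ over FCGR4- in mice 1 and 2 (x axis) and in mice 3 and 4 (y axis) for the 48 genes, coloured by group; the dashed line marks equal ratios. Ctsl, Ctsk, Atp6v0d2 and Atp6v1g1 lie far above the line and Tfeb below it, while Ctss is above 0 on both axes and Smpd1 below 0 on both.

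Few lysosomal genes outside the set passed the test either. Of the 70 tested, 0 were called higher and 1 was called lower in FCGR4+, against 0.0819% and 1.19% of all tested genes, with a median log2 fold change of 0.01. The count of lower calls was 4 with DESeq2 (4.87% of all tested genes) and 3 when genes with low counts were left in (2.35%). The 1 was Ctsw, the cathepsin of cytotoxic lymphocytes, at 0.47, 0.94, 0.70 and 0.15 CPM in FCGR4+ and 3.00, 3.38, 3.41 and 0.85 CPM in FCGR4- macrophages. It was lower in 4 of 4 mice (log2 fold change -2.32 ± 0.37, adjusted P = 0.0602), and without any 1 mouse the adjusted P lay between 0.112 and 0.202. The 9 T and NK cell markers summed to between 3.72 and 9.61 CPM in FCGR4+ and between 15.8 and 49.7 CPM in FCGR4- libraries, with the FCGR4- library of mouse 4 lowest among FCGR4- for both. The part of such cells in the Ctsw value was not tested.

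Ctse, Ctsg and Mcoln3 had negative estimates in 4 of 4 mice and did not pass the test as run here, while DESeq2 called all of them. With edgeR, Ctse and Ctsg passed when genes with low counts were left in (adjusted P = 0.0209 and 0.0011) and by its newer quasi-likelihood method (0.0740 and 0.0541), Ctse passed when at least 10 counts were asked of every library, and Ctsg passed within prefix S395 (0.0316). Ctse, an aspartic protease of antigen-presenting cells, was 30.7, 31.6, 28.4 and 25.1 CPM in FCGR4+ and 38.3, 50.7, 62.0 and 43.4 CPM in FCGR4- macrophages, with no overlap between the groups (log2 fold change -0.73 ± 0.16, adjusted P = 0.153, and 0.0035 with DESeq2). Ctsg, a serine protease of neutrophil and mast cell granules, had 1, 0, 0 and 10 counts in FCGR4+ and 226, 81, 8 and 29 counts in FCGR4- libraries (log2 fold change -5.33 ± 1.54, adjusted P = 0.279, and 0.00014 with DESeq2). The size of its estimate changed with the mice kept, while its sign did not. Without mouse 4 the log2 fold change was -7.92 and passed (adjusted P = 0.0483). Without mouse 1, 2 or 3 it was -4.25, -4.23 and -4.96 and did not pass. Mcoln3, a relative of Mcoln1, was at most 3.10 CPM in FCGR4+ and 7.42 CPM in FCGR4- libraries, both in mouse 2 (log2 fold change -1.63 ± 0.42, adjusted P = 0.218, and 0.0497 with DESeq2). The pump subunits of other tissues, Atp6v0a4, Atp6v1b1, Atp6v1c2, Atp6v1e2 and Atp6v1g3, did not pass the filter on low counts. At the ends of the classes not yet named, Galc, the galactosylceramidase, was at 0.36 (adjusted P = 0.520) and Arsb, the arylsulfatase B, at -0.79 (adjusted P = 0.543). The tetraspanin Cd63 was at 0.34 (adjusted P = 0.598). Lamtor4, a subunit of the Ragulator complex, was at 0.32 (adjusted P = 0.607) and Gnptab, which adds the lysosomal sorting tag, at -0.13 (adjusted P = 0.820). With 1 mouse left out, Galc ran from 0.20 to 0.43 and Arsb from -1.06 to -0.37. Cd63 then ran from 0.13 to 0.52, Lamtor4 from 0.16 to 0.45 and Gnptab from -0.32 to 0.03. Atp6v0e2 had -2.25 (adjusted P = 0.514) at a mean of at most 0.862 CPM in either population, a value that was -2.79, -3.08, -1.70 and -1.51 without mouse 1, 2, 3 and 4, and Atp6v1g2 had 0.15 (adjusted P = 0.901). Ctsf had 0.10 (adjusted P = 0.813).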

How the data were processed

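The authors aligned reads with STAR to mm10 and summed them over genes with featureCounts 1.6.3 (Subread), per the submitters' processing notes and the file header, and the deposited values are these raw counts. According to the command kept in the header, read pairs were the unit, strand was ignored, and multimapping pairs scored at every location. Near-identical copies therefore share reads, and reads where a gene overlaps an antisense gene are not told apart by strand. All per-sample columns were used (0 were left out).

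Libraries were grouped by the labels and paired by the mouse number, which names the same animal. Deviations of libraries of the same mouse correlated at 0.291 to 0.428, against a median of -0.0615 between different mice. The filter asked for 10 or more counts in 4 or more of the 8 libraries, and the genes left were normalized by TMM and tested with the edgeR quasi-likelihood test (edgeR 4.0.16, R 4.3.3), mouse as a block, Benjamini-Hochberg adjustment over all 17095 genes and a threshold of 0.1. The study's methods name DESeq2 with the same terms, which was the alternative here (DESeq2 1.42.0). Other alternatives were no block, other scalings, filters and quasi-likelihood settings, leaving out each mouse, and each animal ID prefix alone. SEs are the log2 fold change divided by the root of F, intervals are 95%, and per-mouse ratios use a prior count of 2. Both tools were tested on simulated data. At these depths a floor of 3 counts was between 0.0440 and 0.0883 CPM, which covers counting error only.

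The members and lists were chosen with earlier results of these data known. Named in each group were members past the threshold, the 3 highest and 3 lowest log2 fold changes and the 2 most abundant per kb, and outside the set the genes past the threshold and the highest and lowest of each class. Members named beyond that rule were chosen after their values were seen.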

Additional observations from a re-analysis of the deposited data

Results flagged for a closer look

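For each member, the 4 FCGR4+ levels, the 4 FCGR4- levels and the 4 per-mouse log2 ratios were searched for a sample far from the other 3 (the gap to the nearest divided by the range, above Dixon's 95% critical value). Of 144 groups of 4 values, 18 met this, where chance gives about 1 in 20, or 7.2, for independent groups of normal values. These groups are not independent, since all come from the same 4 mice, so nothing is read from the excess. In 15 of the 18 the sample was mouse 2, and in 3 it was mouse 1.

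In FCGR4+ the level of mouse 2 stood apart for Ctsb (0.831), Ctsd (0.954), Psap (0.936) and Naglu (0.945), and that of mouse 1 for Lamp2 (0.885, at 1938 CPM against 1311 to 1383 CPM). In FCGR4- mouse 2 stood apart for Atp6v0b (0.958), Atp6v1c1 (0.879), Ctsd (0.946), Ctss (0.973), Gaa (0.89), Psap (0.924), Naglu (0.843), Galns (0.915), Lamp1 (0.976) and Mcoln1 (0.879), always as the highest, and mouse 1 for Npc2 (0.839), as the lowest. Among the ratios, that of mouse 2 stood apart for Atp6v1b2 (0.852, at 0.38 against 0.05 to 0.10) and that of mouse 1 for Naglu (0.912, at 0.35 against -0.05 to -0.02).

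For 11 members the per-mouse ratios had opposite signs under the 2 animal ID prefixes. The interaction, prefix S491 minus prefix S395 on the log2 scale, was 0.44 for Atp6v0b, 0.48 for Atp6v0e, -0.49 for Atp6ap1, -0.19 for Ctsa, 1.37 for Ctsk, -0.62 for Man2b1, -0.25 for Psap, -0.41 for Tpp1, -0.40 for Galns, -0.28 for Lamp1 and -0.66 for Tfeb. The test of the difference itself had adjusted P values from 0.303 (Ctsk) to 0.690 (Ctsa), so no difference between the prefixes passed.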

How the results depend on the processing

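The call of 0 members lower held under every alternative run, and that of 0 members higher under all but 2, in which 1 member, Ctss, passed (DESeq2 and no filter on low counts). Over all genes 217 were called. The count was 48 with no replicate block (1 higher, 47 lower), 1024 with DESeq2 (192 and 832), 1054 with no filter (159 and 895), 629 with the newer edgeR quasi-likelihood method (57 and 572), 113 within prefix S395 (7 and 106), 113 within prefix S491 (29 and 84), 76 at a threshold of 0.05 (2 and 74) and, with library size alone, 8 higher. Leaving out 1 mouse gave between 84 and 163 (2 to 9 higher, 82 to 154 lower), the lowest without mouse 1. Fewer mice leave fewer degrees of freedom, and the cause of the other changes was not tested. Fcgr4 passed in every setting. With no replicate block no member's call changed, and outside the set Ctsw lost its call (adjusted P = 0.353). The count of other lysosomal genes called lower, 1 as reported, was 4 with DESeq2 and 3 each with no filter and with the newer quasi-likelihood method.

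Of the group medians, that of the cathepsins was 0.15 with library size alone and 0.10 within prefix S395, that of membrane, sterol and control genes 0.065 with library size alone and that of the other hydrolases 0.21 within prefix S395. Library size alone moved the median of all genes to -0.09 and no filter moved it to -0.16. The share of promoters with an E-box was 18.4% when flanked by T and A.

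The log2 fold changes that changed sign belonged to 25 of the 48 members, in 56 of 624 results, none past the threshold. With no replicate block they were 0.0035 (Atp6v0d1), -0.014 (Ctsz), 0.091 (Man2b1) and 0.051 (Galns). With library size alone they were -0.0008 (Atp6v0b), -0.0065 (Atp6v1a), -0.0019 (Atp6v1c1), -0.015 (Atp6v1h), -0.030 (Ctsd), -0.065 (Ctsz), -0.032 (Naglu) and -0.033 (Lamp1), and with no filter 0.014 (Atp6v0d1), 0.0059 (Atp6v1e1), 0.017 (Man2b1) and 0.015 (Galns). Within prefix S395 they were -0.13 (Atp6v0b), 0.015 (Atp6v0c), -0.15 (Atp6v0e), -0.011 (Atp6v1a), -0.058 (Atp6v1c1), 0.011 (Atp6v1e1), -0.077 (Atp6v1f), -0.081 (Atp6v1g1), -0.014 (Atp6v1h), 0.10 (Atp6ap1), 0.064 (Ctsa), -0.47 (Ctsk), 0.058 (Gaa), 0.31 (Man2b1), 0.044 (Psap), 0.14 (Tpp1), 0.20 (Galns) and 0.19 (Tfeb), and within prefix S491 -0.015 (Ctsc), -0.059 (Naglu) and -0.11 (Lamp1). Without 1 mouse the range crossed 0 for Atp6v0d1 (-0.046 to 0.028), Ctsz (-0.046 to 0.089), Naglu (-0.042 to 0.094), Lamp1 (-0.0072 to 0.12), Atp6v1e1 (-0.090 to 0.067), Gla (-0.12 to 0.029), Atp6v0b (-0.0016 to 0.20), Ctsk (-0.069 to 0.53), Man2b1 (-0.16 to 0.14), Galns (-0.12 to 0.075), Atp6v1a (-0.010 to 0.16), Atp6v1c1 (-0.0094 to 0.20), Ctsa (-0.082 to 0.031) and Tpp1 (-0.17 to 0.018). With 4 mice, a true difference of up to the bound of each 95% interval could have been missed.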
